A study of Mus musculus with 564 samples.

Results

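The response of mouse macrophages to 4 h of lipopolysaccharide (LPS) was followed in the presence of 55 clinical kinase inhibitors (CKIs), each measured against its own unstimulated cells. The cells were bone marrow-derived macrophages (BMDMs) of young wild type male C57/BL6 mice, pre-treated for 1 h with 1 CKI and then either left unstimulated (UT) or stimulated with LPS at 10 ng/mL for 4 h. The title of the UT samples names time 0, while their treatment label names 4 h without stimulus. Every CKI was used at 1 concentration, which the study set from the affinity for the intended target and which the labels do not give. Histone H3 acetylated at lysine 27 (H3K27ac) was measured by ChIP-seq over 59190 cis-regulatory elements (CREs), regions of open chromatin with a median width of 1652 bp. The members were the 127 of 564 libraries that belong to a CKI with both a UT and an LPS 4 h library, 70 UT and 57 LPS 4 h, and 3 of the 58 CKIs had no LPS 4 h library (Encorafenib, MK2206 and XL413). Where a title marked a further library with the suffix b, as for the UT cells of 15 CKIs and the LPS cells of 2, the log2 values were averaged. The CKIs served as the replicates of the LPS response, and vehicle (DMSO) cells, with 2 libraries each of UT and LPS 4 h, were kept apart and set beside the result. The labels do not say whether libraries came from separate cultures or animals, so p-values measure the spread between the CKIs and their libraries.

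LPS is sensed by TLR4 together with its co-receptors Cd14 and Ly96. Through the adaptor Myd88, TLR4 activates the IKK complex, NF-kB and the MAP kinases, and through the adaptor Ticam1 it activates Tbk1 and Irf3, which induce interferon beta. Secreted interferon then signals through JAK kinases and STAT factors to interferon-stimulated genes (ISGs). In macrophages this programme turns on cytokines, chemokines and antimicrobial effectors, while enhancers of the resting state lose acetylation. H3K27ac marks active promoters and enhancers, and in a bulk sample a lower level cannot tell fewer marked cells from less mark per cell.

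The sequences below show what lay at the CREs with the largest shared gains and losses whose sequence could be printed, and directly upstream of the transcription start site (TSS) of a pair of genes shown for every CKI. All come from the RefSeq assembly GRCm38 (mm10), are 200 bases long and run 5′ to 3′, with matches to any of 8 searched motifs in capitals on either strand. The motifs were an interferon regulatory factor (IRF) half-site pair AANNGAAA, kappaB GGANTTTCC, AP-1 TGANTCA, GAS TTCNNNGAA, CEBP TTGCNNAA, PU.1 GAGGAAGT, the E-box CACGTG and the MARE half-site TGCTGA. The first pair are centres of CREs with large gains, an intergenic CRE whose nearest TSS is that of Jak2 (chr19:29176553-29176752, + strand), a kinase of cytokine receptors, and an intronic one near Ptges (chr2:30913208-30913407, + strand), which makes prostaglandin E2.
Jak2: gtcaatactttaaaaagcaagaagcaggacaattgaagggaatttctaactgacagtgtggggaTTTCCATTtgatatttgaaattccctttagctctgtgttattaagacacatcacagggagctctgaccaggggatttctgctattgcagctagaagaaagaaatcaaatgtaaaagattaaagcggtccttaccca
Ptges: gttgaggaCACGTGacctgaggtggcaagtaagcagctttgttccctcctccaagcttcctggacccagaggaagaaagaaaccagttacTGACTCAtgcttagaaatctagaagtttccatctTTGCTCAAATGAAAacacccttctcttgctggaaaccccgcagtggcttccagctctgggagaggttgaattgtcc
The next pair are centres of CREs with the largest losses, in an intron near Slco2b1 (chr7:99674642-99674841, + strand), an organic anion transporter, and between genes near Mef2a (chr7:67461980-67462179, + strand), a MADS-box transcription factor.
Slco2b1: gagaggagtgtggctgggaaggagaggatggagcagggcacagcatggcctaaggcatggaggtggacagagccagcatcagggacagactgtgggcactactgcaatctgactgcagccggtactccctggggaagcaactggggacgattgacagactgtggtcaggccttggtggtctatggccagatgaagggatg
Mef2a: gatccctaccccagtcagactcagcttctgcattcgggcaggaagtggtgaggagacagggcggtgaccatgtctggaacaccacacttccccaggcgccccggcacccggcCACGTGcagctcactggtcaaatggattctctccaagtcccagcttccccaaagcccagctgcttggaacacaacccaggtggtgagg
The last pair lies upstream of the TSS of Nfkbia (chr12:55492648-55492847, − strand), the inhibitor of NF-kB, and Rsad2 (chr12:26456453-26456652, − strand), an antiviral ISG.
Nfkbia: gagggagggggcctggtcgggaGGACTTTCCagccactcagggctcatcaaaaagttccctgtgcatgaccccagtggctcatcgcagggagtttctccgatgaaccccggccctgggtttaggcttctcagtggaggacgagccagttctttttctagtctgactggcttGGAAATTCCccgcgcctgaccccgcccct
Rsad2: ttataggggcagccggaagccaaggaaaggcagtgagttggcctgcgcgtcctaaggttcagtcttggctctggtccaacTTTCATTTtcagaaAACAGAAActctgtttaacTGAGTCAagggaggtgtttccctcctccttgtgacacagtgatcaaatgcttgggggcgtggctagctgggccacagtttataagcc
The Jak2 centre held 1 IRF half-site pair. The Ptges centre held 1 match each of IRF, AP-1, CEBP and the E-box, of which the CEBP match at position 125 and the IRF match at position 131 shared bases. The Nfkbia window held 2 kappaB matches, the Rsad2 window 2 IRF half-site pairs and 1 AP-1 match, and the Mef2a centre 1 E-box, while the Slco2b1 centre held none of the 8 motifs. Among 200-base windows at the centre of all CREs, 22.4% held the IRF pair, 17.3% AP-1, 10.8% CEBP and 4.16% the E-box. Among 200-base windows upstream of all annotated TSSs, kappaB matched in 0.871%, the IRF pair in 16.3% and AP-1 in 4.59%.

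The libraries differed in quality, and this touches several results. Of the 127 CKI libraries, 125 gave an estimate of the reads in CREs from the spacing of their values, between 568646 and 6983420 with a median of 2288730, and this range of depth limits the precision at weak CREs. Contrast was taken as the ratio between the median values of the strongest and the weakest 10% of CREs in a library. It was 3.37 to 50.3 with a median of 20.4 in CKI libraries, and 62.5 to 127 in the 4 DMSO libraries. The columns of the table fall into 6 consecutive stretches that share no CKI, here called runs, with 8 to 10 of the CKIs used in each, and these served as a technical split, although the labels name no batch. Repeated UT libraries of 1 CKI differed by a median of 0.249 to 0.485 on the log2 scale over all CREs, and the repeated LPS libraries by 0.561 in Afatinib and 0.391 in SGX523. All 8 macrophage marker genes had a CRE at their TSS, with a median level of 685 normalized reads, against 160 for all genes with such a CRE. Of the 6 B cell markers 2 had one, as did 2 of 7 T and NK cell, 4 of 7 neutrophil, 3 of 5 dendritic cell, 2 of 5 fibroblast and 1 of 5 erythroid markers, with median levels of 50.8, 83.9, 116, 149, 17.1 and 122. None of the macrophage markers passed the threshold in the LPS response, and of the other lists only the neutrophil gene Camp did, with 2.71.

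The first question was which CREs move the same way whatever CKI is present. For each CKI the log2(value + 5) at LPS 4 h minus that at UT was taken as its LPS difference, and the 55 differences of a CRE were tested against 0 with limma. Of the 59146 CREs whose mean value reached 10, 6064 (10.3%) had a mean difference above 1 and 4993 (8.44%) one below −1 at an adjusted p under 0.01. A CRE was counted as shared when at least 50 of the 55 CKIs had the sign of the mean. This held for 5565 CREs with gains (9.41% of those tested) and 4797 with losses (8.11%), which were 91.8% and 96.1% of the called CREs. The gain was positive in every CKI at 2333 CREs (41.9% of the shared gains), and the loss was negative in every CKI at 2436 (50.8% of the shared losses). Just inside the limit, 288 gains and 186 losses had exactly 50 CKIs with the sign of the mean, and just outside it 189 and 86 called CREs had 49. Every LPS value lay above every UT value at 662 CREs (1.12%) and below every UT value at 947 (1.60%). The plot of direction against mean difference shows where these groups lie. Both axes enter the choice of the groups, so their separation is no finding.

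**Figure D1:**
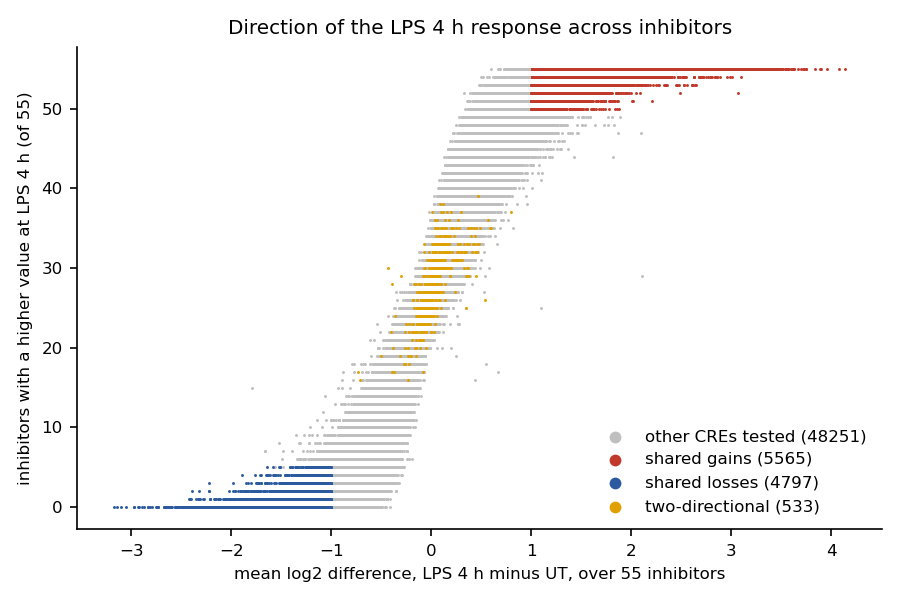
Each point is a CRE, with its mean log2 difference between LPS 4 h and UT over 55 inhibitors on the x axis and the number of inhibitors with a higher value at LPS 4 h on the y axis. The 5565 shared gains lie at 50 or more inhibitors, the 4797 shared losses at 5 or fewer, and the 533 two-directional CREs lie between them around a mean of 0.

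Shared gains were larger than shared losses. The mean difference had a median of 1.54 over the gains and of −1.33 over the losses, and 1352 gains but 324 losses exceeded 2 in size. The SD over the CKIs had a median of 0.678 at the gains, 0.558 at the losses and 0.695 over all tested CREs. Over the tested CREs whose mean value reached 50 it was 0.5245. Gains started from weak CREs, with a median UT value of 37 and 62.4% of them below 50, and ended at a median of 145. Losses started at a median of 178, with 0.75% below 50, and ended at 62. The median over all tested CREs was 51.5 in UT and 54 after LPS.

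Both groups lay away from promoters more often than the tested CREs as a whole. CREs at a promoter were 19.3% of all tested, 8.12% of the shared gains and 13.5% of the shared losses. Put the other way, 3.97% of 11392 promoter CREs were shared gains and 5.67% shared losses, against 10.7% and 8.69% of 47754 other CREs. The median distance to the nearest TSS was 18.9 kb for gains, 16.1 kb for losses and 13.2 kb for all. In the central 300 bp of the CREs, the IRF half-site pair was found in 46.4% of the gains, 29.0% of the losses and 31.3% of all tested, and kappaB in 5.73%, 1.17% and 2.36%. GAS was found in 13.8% of the gains against 9.40% of all, and CEBP in 19.2% against 14.7%. PU.1 and the E-box were found in 11.6% and 7.40% of the losses, against 9.11% and 5.66% of all and 7.13% and 3.50% of the gains. AP-1 was found in 23.2% of gains, 21.7% of losses and 20.2% of all, and the MARE half-site in 22.7%, 28.3% and 24.9%. Among CREs away from promoters alone, AP-1 was found in 24.4% of gains, 23.7% of losses and 23.6% of all. Among promoter CREs alone, 43.4% of the 452 gains held the IRF pair against 17.7% of all, while 2.65% held kappaB against 1.19%. These shares are descriptions of letters and carry no test.

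The 10 largest gains were at distal CREs, and each was positive in all 55 CKIs. The largest was an intergenic CRE 76.6 kb from the TSS of Acaa2, a mitochondrial thiolase. Its UT values ran from 6 to 77 with a median of 21 and its LPS values from 145 to 770 with a median of 489, so the groups did not overlap, and the mean difference was 4.14 ± 0.10 (SE, n = 55, adjusted p = 2.24e-57 in limma). The CRE 75.2 kb from Jak2 (chr19:29175791-29177514), whose centre is printed above, rose from a median of 11 (3 to 102) to 282 (52 to 470), a mean of 3.96 ± 0.12. Here the groups overlapped, since Talmapimod had a UT value of 102 and PH797804 an LPS value of 52, and PH797804 gave the smallest difference, 0.37. The intronic CRE 10.0 kb from Ptges (chr2:30912354-30914260) rose from a median of 30 (7 to 53) to 541 (228 to 711), a mean of 3.89 ± 0.08, with differences from 2.36 in Losmapimod to 5.78 in ONO4059analogue. An intergenic CRE 3.60 kb from the start of Tnfaip3 (chr10:19018411-19020112), which encodes the ubiquitin-editing enzyme A20 that limits NF-kB, rose from a median of 31 (8 to 115) to 520 (218 to 749), a mean of 3.84 ± 0.10. The other 6, near Mrpl39, Il1f10, Shisa3, Adora2a, Edn1 and Ifi209, had means from 3.66 to 3.89 and no overlap between UT and LPS values. Adora2a encodes an adenosine receptor and Edn1 the vasoconstrictor endothelin 1. At Ifi209, 21.7% of the sampled 51-base words of the CRE occurred elsewhere in the genome, so part of its reads may not be placed uniquely.

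The 10 largest losses were also distal, negative in all 55 CKIs, and free of overlap between UT and LPS values. The intronic CRE near Slco2b1 (chr7:99673549-99675934) fell from a median of 545.5 (314 to 690) to 54 (21 to 145), a mean difference of −3.17 ± 0.08 (SE, n = 55, adjusted p = 5.48e-54 in limma). The CRE 89.2 kb from Mef2a (chr7:67461189-67462969) fell from a median of 661 (498 to 847) to 72 (27 to 124), a mean of −3.14 ± 0.06, and its SD of 0.49 over the CKIs was below that of the largest gains. The intronic CRE near Zfyve28 (chr5:34237865-34239463) fell from a median of 353 to 36, a mean of −3.11 ± 0.09, with the smallest difference, −0.54, in Lenvatinib. The remaining 7, near Tbc1d9, Pex5, Sgsh, C1qtnf1, Foxp1, Ivns1abp and Tbc1d22a, had means from −3.05 to −2.81. Sgsh encodes a lysosomal sulfatase and Foxp1 a forkhead transcription factor. PH797804, Lenvatinib, Losmapimod, Omipalisib or Tanzisertib gave the smallest difference at each of the 10.

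Shared CREs were gathered around some genes. The nearest genes numbered 2646 for the gains and 2292 for the losses. Tnfaip3 was nearest to 30 shared gains among 36 tested CREs, with mean differences from 1.01 to 3.84, Lpp to 30 of 56, and Nfkbiz, an inducible NF-kB cofactor, to 22 of 38. All 20 tested CREs nearest to Edn1 and all 15 nearest to Psma6 were shared gains. Zfp36l2, an RNA-binding protein that promotes mRNA decay, was nearest to 28 shared losses of 38 tested CREs, and Irf2bp2, a transcriptional co-regulator, to 21 of 26. Neighbouring CREs are not independent, and the nearest gene is not shown to be the one regulated.

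The gains and losses at 4 h were set beside the earlier times and IL-4 in the same CKIs, with 52 to 55 CKIs per time. The median value over the shared gains was 37 in UT, 67 at 30 min, 93 at 1 h, 135.5 at 2 h and 145 at 4 h of LPS. Over the shared losses it was 178, 88, 74.5, 57 and 62, so most of the decline of the median was present by 30 min. After IL-4 the medians stayed between 38 and 45 at the gains and between 138.5 and 155 at the losses. The single CREs did not all follow the medians. At the Jak2 CRE the median value was 131 at 30 min, 193 at 1 h and 245 at 2 h, whereas at the Acaa2 CRE it was 35, 74 and 372. The Mef2a CRE was at 161, 110 and 53, and at 399 after 4 h of IL-4.

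The next question was which groups of genes held the shared changes at their own TSS. A gene was taken when a CRE covered its TSS or lay within 1 kb of it, which held for 11090 genes, and 470 of these CREs (4.24%) were called higher and 611 (5.51%) lower, with a median mean difference of −0.06. Of the ISG list, 30 of 34 were called higher and 0 lower, and every one of the 30 was a shared gain. Ogfr is among them, a gene that the study describes as induced by LPS independently of interferon. Zbp1, a sensor of nucleic acids in the Z form, rose from a median of 171 (93 to 261) to 970 (552 to 1433), a mean of 2.49 ± 0.06 (SE, n = 55). Ifit1, which binds foreign RNA, rose from 85 (50 to 137) to 453 (166 to 664), a mean of 2.29 ± 0.06. Gbp5 and Mx1, 2 antimicrobial GTPases, rose by 2.38 ± 0.07 and 2.22 ± 0.06. For these 4 genes no LPS value lay below any UT value. Rsad2 rose by 1.33 ± 0.06, with UT values of 41 to 129 and LPS values of 70 to 321 that overlapped. Members that were not called included those with means of 0.82 at Irf1, 0.84 at Oas2 and 0.90 at Irgm1.

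Cytokine and chemokine genes split. Of 19 cytokine genes 8 were called higher and 0 lower. Il27 rose from a median of 269 (162 to 473) to 1801 (871 to 2618), a mean of 2.65 ± 0.06, and Il6 from 63 (29 to 111.5) to 420 (155 to 677), a mean of 2.61 ± 0.08 (adjusted p = 5.89e-51 in limma). Il1rn, the antagonist of interleukin 1, rose by 2.10 ± 0.06 and Il1a by 1.80 ± 0.08. Il1b rose by 1.52 ± 0.07 from a median of 193.5 (90 to 450) to 606 (310 to 919), with 54 of 55 CKIs positive and −0.08 in Talmapimod. Ifnb1, interferon beta, rose by 1.64. Tnf, Il12b and Il10 had mean differences of 0.57, 0.60 and 0.08 and were not called. Of 16 chemokine genes 6 were called higher and 0 lower. Ccl5 rose from 170 (108 to 409) to 1959 (725 to 2945), a mean of 3.41 ± 0.07, and Cxcl10 from a median of 107 (59 to 256) to 841 (480 to 1137), a mean of 2.70 ± 0.07, both without overlap. Ccl2, Cxcl1 and Ccl3 had means of 0.22, 0.36 and 0.43, and Cxcl3 one of −0.66.

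Of 24 activation effectors 14 were called higher, the largest being the formyl peptide receptors Fpr1 (3.61 ± 0.10) and Fpr2 (3.31 ± 0.08), the acute phase protein Saa3 (3.26 ± 0.08) and the inducible nitric oxide synthase Nos2 (3.04 ± 0.10). The CRE of Nos2 went from a median of 38 (15 to 111) to 402 (126 to 709). Of 28 NF-kB subunits and feedback genes 14 were called higher. Dusp2, a MAP kinase phosphatase, rose by 2.22 ± 0.08, the CRE at the TSS of Tnfaip3 by 1.94 ± 0.05, and the cytokine signalling inhibitors Socs3 and Socs1 by 1.71 ± 0.05 and 1.64 ± 0.05. Nfkbia, already acetylated in UT at a median of 818 (646 to 1048), rose to 1695 (825 to 2387), a mean of 1.04 ± 0.05 with Losmapimod the lowest at 0.15, and quantile normalization left it below the threshold with 0.91. The phosphatase gene Dusp4 had a mean of −0.73.

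In contrast, none of the 34 genes of the TLR4 pathway reached a mean difference of 1 in size over the CKIs, and their median was 0.07. In DMSO cells 7 of the 34 were called higher and 0 lower. Over the CKIs the mean difference was −0.95 ± 0.04 at Tlr4, with lower values in all 55 CKIs. It was 0.97 ± 0.05 at Mapkapk2, 0.95 ± 0.05 at the IKK subunit Ikbkb and 0.93 ± 0.05 at the inhibitory kinase Irak3, all near the threshold of 1. Mapkapk2 passed it with 1.02 without run 1, and Ikbkb with 1.00 after quantile normalization. Of 20 immediate early transcription factors, 0 were called higher and 1 lower, Klf2 with −1.09 ± 0.06. Fosb and Nr4a1 had medians of 159.5 and 91 in UT and of 303 and 308 at 30 min, and their mean differences at 4 h were −0.59 ± 0.06 and 0.56 ± 0.07. No sterol or ribosomal protein gene reached that size either, with list medians of 0.01 over 17 and −0.05 over 35 genes.

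Genes of the resting macrophage and of the cell cycle lost acetylation in part. Of 31 macrophage identity genes, 0 were called higher and 8 lower. Cebpa, a myeloid transcription factor, fell from a median of 385 (214 to 498.5) to 87 (35 to 158), a mean of −2.07 ± 0.05 (adjusted p = 4.16e-54 in limma). Trem2, a lipid receptor, fell from 880 (614 to 1209) to 259 (113 to 324), a mean of −1.81 ± 0.04, and Apoe from 768.5 (555 to 1037) to 259 (171 to 357), a mean of −1.52 ± 0.04. UT and LPS values did not overlap at these 3 genes. Mrc1, the mannose receptor, fell by 1.33 on the log2 scale. Csf1r, the receptor of the growth factor that maintains these cells, had a mean of −0.73 ± 0.04 with lower values in 55 of 55 CKIs, and Spi1, the gene of PU.1, one of 0.10. Of 28 cell cycle genes 5 were called lower, E2f2 (−1.66 ± 0.04), Top2a, Ccnd1, Cdk1 and Ccnb1, and 1 higher, Ccnd2 (1.31 ± 0.06). The D-type cyclins thus moved in opposite directions, with Ccnd1 falling from a median of 448 (71 to 848) to 155 (79 to 238) and Ccnd2 rising from 174.5 (55 to 291) to 410 (169 to 585). The plot of the gene lists shows the mean difference of every member.

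**Figure D2:**
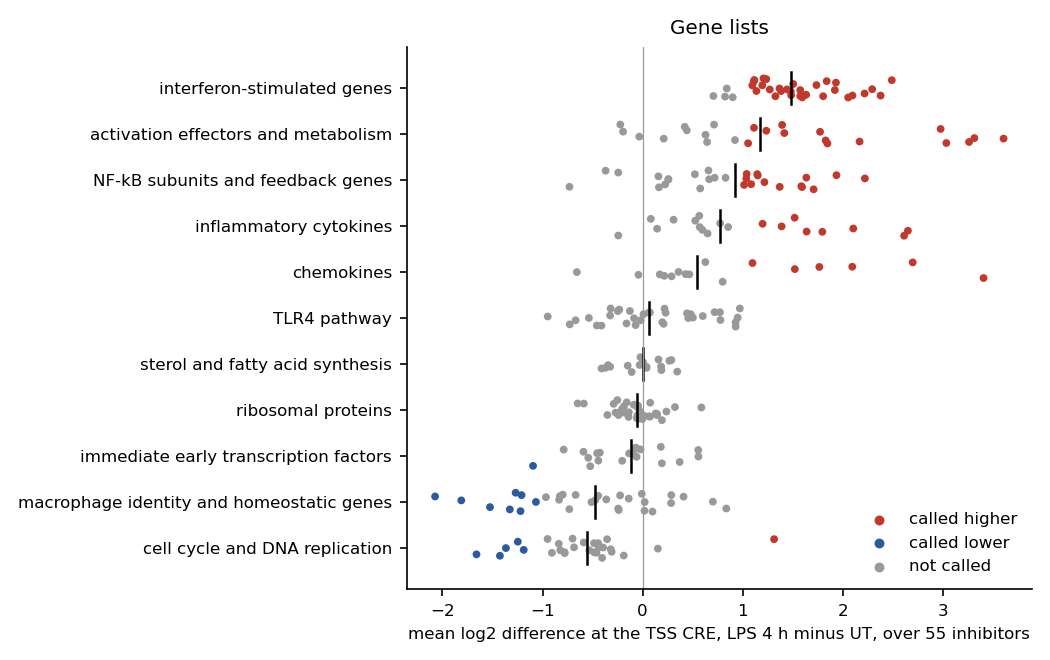
Each point is the CRE at the TSS of 1 gene of a list, with its mean log2 difference between LPS 4 h and UT over 55 inhibitors on the x axis and the list median as a black line. The interferon-stimulated genes have the highest list median, 1.48, and the cell cycle list the lowest, −0.56.

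The list medians were also taken within each CKI. The median over the ISG list was positive in all 55 CKIs, from 0.29 in PH797804 to 2.02 in BGT226. For the cytokines it ran from 0.18 in Afatinib to 1.29 in Lenvatinib, and for the NF-kB list from 0.24 in Losmapimod to 1.34 in VX702. The medians of the macrophage identity and cell cycle lists were negative in all 55 CKIs, from −1.01 to −0.03 and from −1.07 to −0.13. The TLR4 pathway and ribosomal lists had no common sign, with 38 and 23 of 55 CKIs positive. In the 6 JAK inhibitors, which act on the kinases below the interferon receptor, the ISG list median was 0.86 to 1.67, within the range of the other 49 CKIs (0.29 to 2.02). At Ifit1 the mean difference was 2.26 in the JAK inhibitors and 2.30 in the others, and at Rsad2 1.22 and 1.34, with adjusted p of 0.964 and 0.985 in limma (differences 0.05 and −0.02 with the run as a covariate).

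How far a single CKI followed the shared response varied. Of all signs at the 10362 shared CREs over the 55 CKIs, 2.24% were opposite or 0, and 5 CKIs held 43.6% of these, PH797804 with 1670, Talmapimod with 1391, Afatinib with 1024, Lenvatinib with 768 and Losmapimod with 723. In 49 CKIs at least 95% of the shared CREs had the common sign, and in 2 fewer than 90% did, PH797804 with 83.9% and Talmapimod with 86.6%. Because the sign was used to choose the CREs, these shares describe the CKIs and are no test. The correlation of differences across all tested CREs between 2 CKIs ran from −0.042 to 0.858 with a median of 0.582 over 1485 pairs. The heatmap of named CREs shows the differences of every CKI.

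**Figure D3:**
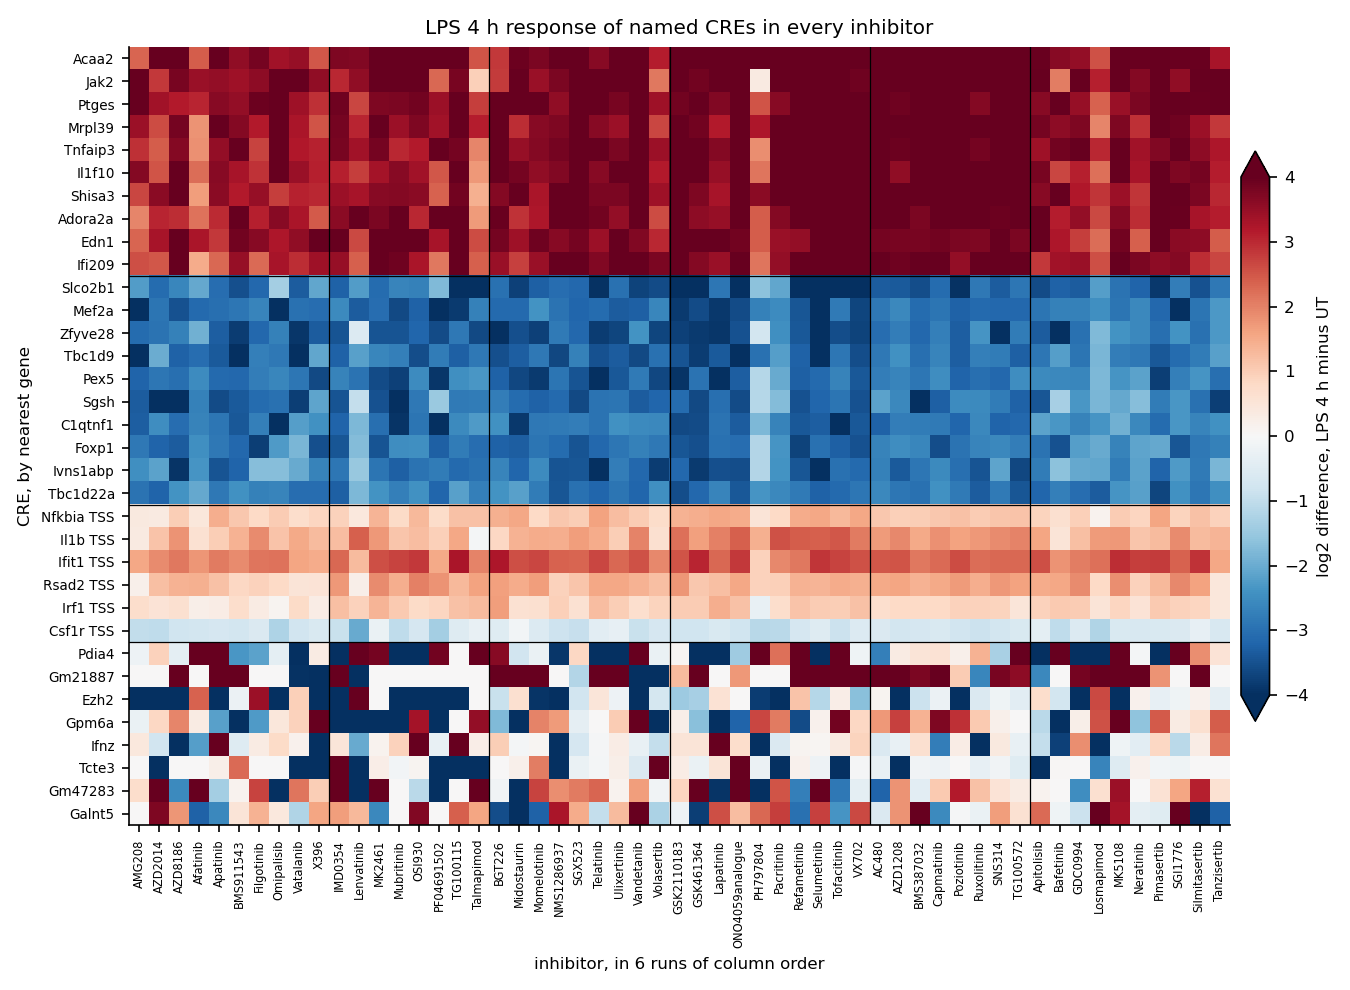
Log2 difference between LPS 4 h and UT in each of 55 inhibitors (columns, in 6 runs of column order separated by lines) at named CREs (one per line). From top to bottom the blocks hold the 10 largest shared gains, the 10 largest shared losses, 6 CREs at fixed TSSs and the 8 CREs whose SD over inhibitors stood farthest above the trend, and colours saturate at −4 and 4.

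The size of the response was taken as the slope of a CKI's differences on the mean differences of the other CKIs over the shared CREs. It ran from 0.587 in PH797804 to 1.27 in Selumetinib with a median of 1.00. Across the 55 CKIs the slope was higher with higher contrast of the libraries on a log2 scale, with r = 0.910 and rho = 0.882, both with a permutation p of 1e-05 (two-sided, the smallest the resampling could give, 7e-05 after adjustment over 14 relations). Without PH797804 and Losmapimod, the CKIs farthest from the median contrast, r was 0.889. Within the 6 runs r was 0.696 to 0.991, with adjusted permutation p of 9.33e-05 to 0.0484, while rho was 0.350 in run 3, with an adjusted exact permutation p of 0.359. With the estimated reads of 53 CKIs, r was 0.690 and rho 0.696 (permutation p 1e-05 for each), r was 0.689 without the 2 farthest, and the within-run r was 0.206 to 0.978. Contrast is measured on the same libraries as the slope, and the share of the slope that belongs to the CKI itself was not tested. The run means had the sign of the overall mean at every shared CRE, which the choice of these CREs nearly fixes. The median of the run means over the gains was 1.23, 1.47, 1.56, 1.86, 1.86 and 1.45 in runs 1 to 6, and over the losses −1.41, −1.43, −1.37, −1.40, −1.30 and −1.25. A limma F-test over the runs called 4472 CREs (7.56%) at an adjusted p under 0.05, among them 1974 shared CREs (19.1% of these), and after quantile normalization 656 were called in all.

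**Figure D4:**
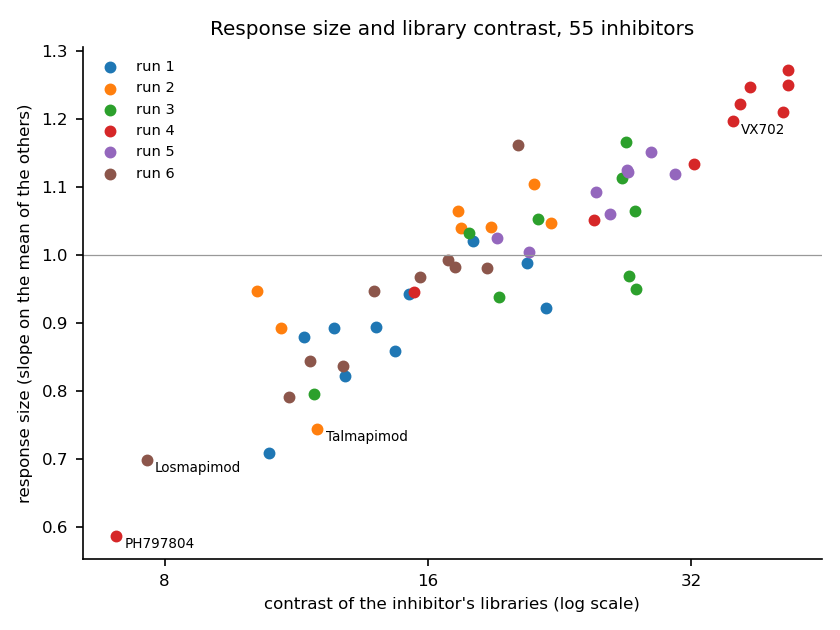
Response size of each inhibitor (slope of its log2 differences on the mean of the others over the shared CREs, y axis) against the contrast of its libraries (log axis), coloured by run of column order. PH797804 has the smallest slope, 0.587, and the lowest contrast, and the slope rises with the contrast within the runs as well.

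The CREs that varied between CKIs were sought in 2 ways. Two-directional CREs had a mean value that reached 50, at least 11 CKIs with a difference above 0.5 and at least 11 with one below −0.5. There were 533 of 33426 (1.59%), and 14 of them were called in DMSO, 13 higher and 1 lower, against 15.6% and 12% of all tested CREs called higher and lower there. Since the rule sets their spread and keeps their mean near 0, neither the spread nor the low number of DMSO calls is a finding. Of these CREs 16.3% were at promoters, against 29.7% of all CREs whose mean value reached 50. Their central 300 bp held the IRF pair in 31.7%, against 31.2%, and kappaB in 1.31%, against 2.09%. The 2 sets were not matched in level, with median UT values of 57 and 115. Repeated sequence was more frequent among the two-directional CREs, as a description. At 93 of the 533 (17.4%) 50% or more of the sampled 51-base words occurred elsewhere in the genome. This held for 1.49% of all CREs whose mean value reached 50, 3.02% of shared gains and 0.855% of shared losses. The count of two-directional CREs rested on the lower values as well, since 182 were found with a pseudocount of 20, and 341 were found without the 8 CKIs of run 2.

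The second way ranked the CREs by how far their SD over the CKIs lay above the SD of CREs of like level. Of the first 100, 82% had 50% or more of their words elsewhere. The first 8 with different nearest genes, near Pdia4, Gm21887, Ezh2, Gpm6a, Ifnz, Tcte3, Gm47283 and Galnt5, had 69.0% to 99.5% of their words elsewhere, and each was at 0 in some libraries and reached 303 or more in others. At the CRE nearest to Pdia4 the value was 0 in UT and 705 after LPS with Lenvatinib, and 323 in UT and 0 after LPS with Ulixertinib, with 27 CKIs higher and 27 lower. At the CRE nearest to Ezh2, 77.6 kb away, it was 383 and 0 with AMG208, and 0 and 380 with Lenvatinib. ShortStack, the mapper named in the study's methods, assigns a read with several possible origins using local coverage, and the part of read placement in these values was not tested.

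Among CREs where no word sampled in the central 300 bp occurred elsewhere, 8 were chosen after their values were seen. They had the largest SD above the trend. The rest of each CRE was not searched for repeated words in this choice. Near Slfn1, a gene of the Schlafen family, the intergenic CRE (chr11:83124266-83125862) went from a median of 49 (7 to 124) to 544 (42 to 881), with a difference of 5.45 in NMS1286937 and −0.45 in Lenvatinib, so it rose in 54 of 55 CKIs and by very different amounts. The CRE near Saa2, an acute phase protein (chr7:46747821-46749481), went from 21 (3 to 102) to 299 (73 to 402), with differences of 0.04 in Afatinib to 5.40 in Selumetinib. The intronic CRE near Hip1 (chr5:135467649-135469418) had a median of 372 in UT and 295 after LPS, with 0 after LPS in Lenvatinib and a difference of −6.70 there. The LPS library of Lenvatinib, which also gave values named near Pdia4 and Ezh2, had a contrast of 4.29, against a median of 20.4 in CKI libraries. The Afatinib libraries had a contrast of 10.9 in UT and of 13.3 and 7.72 after LPS. The part of library contrast in these values was not tested. The other 5 lay near Pak3, Frmd4a, Sfi1, Hjurp and Ankle1, with mean differences of 0.14 to 0.80 and between 27 and 37 CKIs higher. The CRE near Sfi1 is 61924 bp wide, the widest in the table, so its centre says little about repeats in the whole. Its values ran from 11400 to 75220 in UT.

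The difference between classes of CKIs was tested in limma with the run as a covariate. The classes follow the kinases a CKI was designed against, which for some CKIs is not the kinase that set its concentration here. Over 13 groups by designated target class, 1 of them mixed, none of the CREs varied at an adjusted p under 0.05 (0%), and 2740 (4.63%) had an unadjusted p under 0.05. The 6 JAK inhibitors and the 5 RAF, MEK and ERK inhibitors differed from the other CKIs at 0 CREs (0%) in each direction, with 3220 (5.44%) and 2386 (4.03%) at an unadjusted p under 0.05. For a simulated JAK contrast, 200 CREs were changed by set sizes well above 1 on the log2 scale in all 6 JAK inhibitors. Of these 77.5% were recovered, and 12 unchanged CREs were called. The simulated spread was independent between CKIs and held no differences between runs or in library contrast. Changes near 1 or smaller were not simulated, so how many of those the test would miss is not known.

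The 4 p38 inhibitors differed from the others at 188 CREs in the negative direction (0.318%) and 31 in the positive (0.0524%). Of the 188, 139 were shared gains, which were smaller in these CKIs, and 15 of the 31 were shared losses. At an intergenic CRE 4.81 kb from Mx1 (chr16:97465949-97469483) the values went from 98 to 176 with PH797804, 138 to 443 with Losmapimod, 179 to 450 with Talmapimod and 106 to 861 with VX702. The first 3 gained less than the average of the other CKIs and VX702 more, and the contrast was −1.26 ± 0.22 (SE, adjusted p = 0.00696 in limma). Near Mrpl39, at a second CRE (chr16:84700412-84705833), the differences were 1.69, 2.18, 1.81 and 4.08 in the same order, against a mean of 3.52 in the others. At a CRE near Poldip3 the contrast was −1.40 ± 0.25, with 20.1% of its words found elsewhere. In the positive direction, an intergenic CRE 46.8 kb from Atp6v0d2, a subunit of the vacuolar proton pump, fell by 1.17, 1.16, 2.33 and 2.96 on the log2 scale in that order, against a mean of −2.87 in the others. At the CREs near Emp1 and Map1s the contrasts were 2.02 ± 0.39 and 1.12 ± 0.24.

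Library contrast differed among the members of the p38 group. The slopes of PH797804, Losmapimod and Talmapimod were 0.587, 0.699 and 0.744, and that of VX702 was 1.196. The LPS libraries of PH797804 and Losmapimod had a contrast of 3.37 and 4.37, and the UT library of Talmapimod one of 7.02, against a median of 20.4. With the log2 contrast of each CKI's libraries as a term, 0 CREs were called in each direction, and likewise 0 without the run as a covariate, while quantile normalization gave 890 more negative and 387 more positive. Without PH797804 the test called 1 CRE as more negative and 0 as more positive, without Losmapimod 15 and 1, without Talmapimod 19 and 7, and without VX702 1546 and 644.

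The 5 inhibitors of PI3K and mTOR differed from the others at 37 CREs in the negative direction (0.0626%) and 2 in the positive (0.00338%). At an intergenic CRE 109 kb from Ppm1h, a protein phosphatase (chr10:122568896-122570891), the value went from 261.5 to 258 with Apitolisib, 182 to 96 with AZD2014, 289 to 168 with BGT226, 244 to 73 with Omipalisib and 299 to 145 with PF04691502. Apitolisib stayed near its UT value and the other 4 were lower after LPS, against a mean difference of 0.33 in the other CKIs (contrast −1.02 ± 0.16, adjusted p = 0.000880 in limma). At the TSS of Akip1 (chr7:109702817-109704704), which binds protein kinase A, the differences were −0.84, −3.48, −0.79, −0.92 and −2.64 in the same order, against −0.36 in the others. At a CRE 54.7 kb from Tfpi, an inhibitor of coagulation (chr2:84530589-84532363), they were −1.05, −2.94, −2.38, −3.21 and −1.64, against −1.19. The CREs in the positive direction lay near Mapk1ip1l and Plk2 with contrasts of 1.69 ± 0.37 and 1.88 ± 0.42. In place of 37 and 2, the counts were 139 and 6 without the run as a covariate, 8 and 0 with differences divided by the slope, and 71 and 9 with library contrast as a term. They also moved with each member left out, to 221 and 54 without Apitolisib, 93 and 39 without BGT226, 9 and 0 without Omipalisib, 8 and 3 without AZD2014, and 5 and 0 without PF04691502.

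The response with CKIs was set beside that of DMSO cells. In 2 LPS 4 h against 2 UT libraries, limma called 9212 CREs higher (15.6%) and 7111 lower (12%). Without any 1 of the 4 libraries, 0 CREs were called in either direction, while 21819 to 28384 had an unadjusted p under 0.05. That fit has 1 residual degree of freedom and a lone library in 1 arm, assumed to vary like the other arm, so the absence of calls says little about the DMSO response. Of the shared gains 98.6% were called higher in DMSO, and 59.6% of the DMSO calls higher were shared gains. Of the shared losses 92.7% were called lower in DMSO, and 62.6% of the DMSO calls lower were shared losses. None of the 10362 shared CREs had the opposite sign in DMSO. Across all tested CREs the mean CKI difference and the DMSO difference had r = 0.949, over points that share libraries. The DMSO differences were larger, with a median of 2.43 at the shared gains and −1.75 at the shared losses and a slope of 1.43 on the CKI means. Where DMSO alone was called, at 3279 CREs higher and 2513 lower, the median CKI difference was 0.77 and −0.80, with the DMSO sign at 99.9% and 99.8% of them.

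**Figure D5:**
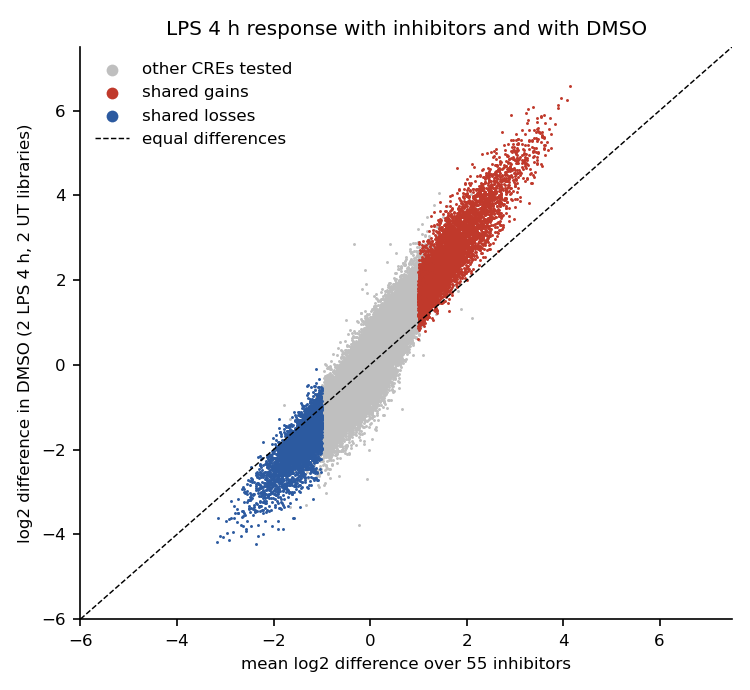
Log2 difference between LPS 4 h and UT in DMSO (2 libraries each, y axis) against the mean log2 difference over 55 inhibitors (x axis) for every tested CRE. Shared gains and losses keep their sign in DMSO, and most lie farther from 0 on the y axis than on the x axis.

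The 2 DMSO differences, paired by the number in the titles, were also tested against the 55 CKI differences. Calls needed an adjusted p under 0.05 and an absolute difference above 1. The test called 114 CREs as more positive in DMSO (0.193%), 110 of them shared gains, and 4 as more negative (0.00676%), 3 of them shared losses. The CRE 132 kb from Itgb8, an integrin that activates TGF-beta, went from 5 and 1 in the DMSO UT libraries to 462 and 449 at LPS 4 h, and from a median of 26 (2 to 118) to 236 (109 to 383) in the CKIs, where it rose in all 55 by a mean of 2.91 ± 0.11 (DMSO minus CKIs 2.98 ± 0.57, adjusted p = 0.00744 in limma). Near Lad1 the DMSO values went from 7 and 4 to 779 and 586, and those of the CKIs from a median of 50 (16 to 230) to 552 (277 to 1324). Near Lad1 both DMSO UT values lay below those of every CKI, and near Itgb8 the lower of them did. Near Heatr9 the DMSO difference was larger by 2.83 ± 0.53. Near Eed, Dusp6 and Tgfbi the DMSO difference was more negative by 2.13, 1.98 and 1.97, with Tgfbi going from 152 and 148 to 6 and 5 in DMSO and from a median of 131 (64 to 209) to 30 (9 to 85) in the CKIs. The contrast of the 4 DMSO libraries was higher than that of every CKI library, as given above, and its part in these differences was not tested. After quantile normalization 4 CREs were called as more positive and 4 as more negative, and with pseudocounts of 1 and 20 the counts were 377 and 23, and 5 and 1.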

How the data were processed

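H3K27ac ChIP-seq was measured in BMDM libraries. Per the labels and the study's methods, the authors clipped adapters, cut single reads to 51 bases, aligned them to mm10 with ShortStack (the processing notes list Bowtie and SAMtools, without versions) and counted reads at CREs from ATAC-seq peaks. The deposited values are these counts scaled by factors from invariant peaks and rounded, so they were treated as a normalized score and not as raw counts. The scaling can shift all CREs of a library together, and rounding is coarse at low values.

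Here log2(value + 5) at LPS 4 h minus UT was taken per inhibitor, and CREs with a mean value under 10 (44 of 59190) were left out. The limma package (3.58.1, under R 4.3.3) gave the tests, with Benjamini-Hochberg adjustment over all tested CREs. Calls needed an adjusted p under 0.01 and an absolute mean above 1. Contrasts between inhibitors needed an adjusted p under 0.05, with no limit on size. The contrast of DMSO against inhibitors needed an adjusted p under 0.05 and an absolute difference above 1. Permutation tests used SciPy 1.17.1 and NumPy 2.4.6 in Python 3.11.15. On simulated data with 200 CREs changed by set sizes well above 1 on the log2 scale the response test recovered 100%. Changes near 1 were not simulated. Reads were estimated from the spacing of values, which was tested on simulated data for 20 libraries and recovered in 20. Runs are consecutive columns of the table that share no inhibitor. Sequences came from RefSeq and gene models from GENCODE.

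Named CREs were the 10 largest shared gains and losses, up to 4 members of each gene list with any that went against it, the 8 with the largest SD above the trend, 3 per direction of each contrast, and 6 fixed TSSs. Some items are not reported here. Other genes of the lists were named after their values were seen. Groups came from the titles. Members, gene lists and tests were chosen with earlier results of these data known. DMSO libraries carry replicate numbers, but R1 of UT and R1 of LPS did not deviate together (r = 0.0336). Alternatives covered pseudocounts, filters, scaling, b libraries, pairing, thresholds, runs and leaving out inhibitors or libraries.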

Additional observations from a re-analysis of the deposited data

Results flagged for a closer look

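The slope and the median difference of the inhibitors were examined within each run and target class of 4 to 10 members. In 4 of these 28 examinations 1 inhibitor lay far from the others, where chance gives about 1 in 20, and each time it was the slope. These were PH797804 in run 4 (0.587), Tofacitinib among the JAK inhibitors (1.222), AMG208 among the MET inhibitors (0.8793) and Omipalisib among the PI3K and mTOR inhibitors (0.822). Over all inhibitors the slope went with library contrast (r = 0.910). The contrast of PH797804 was 7.04, the lowest of run 4, and that of AMG208 11.5, the lowest of its class. Tofacitinib had the highest of its class, 36.3. Omipalisib had 12.9, where the lowest of its class was 10.2. The part of contrast in these flags was not tested.

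Differences between groups were found by the test of the difference itself in 3 comparisons. The LPS response of the p38 inhibitors was more negative than that of the others at 188 CREs and more positive at 31, and both counts were 0 with library contrast as a term and 0 without the run as a covariate. That of the PI3K and mTOR inhibitors was more negative at 37 CREs and more positive at 2, and at 8 and 0 once differences were divided by the slope. That of DMSO cells was more positive than with inhibitors at 114 CREs and more negative at 4, where a difference above 1 in size was also required.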

How the results depend on the processing

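No shared CRE changed its direction in 71 alternatives, which kept at least 76.7% of the shared gains and 72.1% of the shared losses. Leaving out each inhibitor gave 5513 to 5777 shared gains, 4746 to 5000 shared losses and 448 to 521 two-directional CREs. All 781 alternative list medians moved by less than the SD of the list median over the inhibitors. Their signs were not compared, and list medians near 0 could change sign within that limit. A threshold of 0.5 gave 12466 CREs called higher, 12406 lower and 8489 shared losses, and the same sign in all inhibitors left 2333 gains and 2436 losses. Two-directional CREs numbered 182 with a pseudocount of 20, 12457 with no filter on low values and 341 without run 2. The variation over runs fell to 656 CREs after quantile normalization.

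In DMSO, leaving out each library gave 0 CREs called higher and 0 lower, with 1 residual degree of freedom. With a replicate block the DMSO test called 9291 higher and 7187 lower, although the numbers were not shown to pair the libraries. For DMSO against inhibitors, quantile normalization gave 4 more positive, pseudocount 1 gave 377 and 23 more negative, and pseudocount 20 gave 5 and 1. The p38 inhibitors differed at 0 positive and 0 negative CREs without the run term, 257 and 698 with differences divided by the slope, 387 and 890 after quantile normalization, and 0 and 0 with library contrast as a term. Leaving out each p38 inhibitor gave 0 to 644 positive and 1 to 1546 negative. For these families the quantile, contrast and left-out settings were chosen after seeing the data. The PI3K and mTOR inhibitors differed at 6 positive and 139 negative without the run term, 0 and 8 divided by the slope, 9 positive after quantile normalization, and 9 and 71 with the contrast term, and leaving out each gave 0 to 54 and 5 to 221.

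Of 95 named CREs, 2 changed sign. Pdia4 was −0.09662 without b libraries, −0.06927 unpaired, −0.1155, −0.006976 and −0.07421 without runs 2, 4 and 5, −0.1915 without the 2 inhibitors that matched the others least, and −0.1109 to 0.1333 leaving out each inhibitor. Gpm6a was 0.06405 with a pseudocount of 20, 0.1678 without b libraries, 0.2325 and 0.01475 without runs 2 and 4, and −0.1689 to 0.04109 leaving out each inhibitor. Klf2 and Dusp6 dropped below the size threshold with a pseudocount of 20 (−0.99 and −0.92), as did Nfkbia after quantile normalization (0.91) and without run 4 (0.98). Mapkapk2 went past it without run 1 (1.02), Ikbkb after quantile normalization (1.00), and Tcte3 with a pseudocount of 1 (−1.24) and without run 3 (−1.08). The cause of these changes was not tested. Depth, at 568646 estimated reads in the shallowest library, limits weak CREs most.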
